A study of Mus musculus with 10 samples.

Results

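Keratins are the intermediate filament proteins of epithelial cells, and 10 of their genes are described here in mammary tumours of mice: Krt7, Krt8, Krt18 and Krt19, called luminal, and Krt5, Krt14, Krt15, Krt17, Krt6a and Krt10, called basal or skin. They were taken by name from a table of 26063 genes, and all 10 were found. The table holds 37 other keratin genes with a plain numbered name, which serve as a comparison. The study sequenced RNA of frozen end-point tumours from 10 female FVB/N mice, 5 of the genotype EIC/WT (EIC) and 5 of the genotype 16IC/WT (16IC), each tumour under its own animal name. All mice of both groups received doxycycline at 2 mg/ml. The labels spell out neither EIC nor 16IC and give no promoter and no age, while the series title names a HER2 variant and ENPP1. Tumours are numbered 1 to 5 within each genotype for identification, with no order meant.

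Keratin filaments form from pairs of an acidic type I and a basic type II keratin, so each cell needs at least one of either type. Simple epithelia, and the luminal cells that line mammary ducts, carry Krt8 with Krt18, joined by Krt7 and Krt19. Basal and myoepithelial cells of the mammary gland, like the basal layer of the epidermis, carry Krt5 with Krt14, and Krt15 and Krt17 are found in basal and hair follicle cells. Krt6a is a keratin of stressed and follicular epithelium, and Krt10 belongs to the differentiating layers of the epidermis.

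The members lie in the keratin gene clusters of GRCm38. The type II genes are on chromosome 15: Krt7 (ENSMUSG00000023039, plus strand, 101411043 to 101430313), Krt6a (ENSMUSG00000058354, minus, 101689910 to 101694307), Krt5 (ENSMUSG00000061527, minus, 101707070 to 101712898) and Krt8 (ENSMUSG00000049382, minus, 101996698 to 102004482). Krt18 (ENSMUSG00000023043, plus, 102028180 to 102032027) is a type I gene that stands apart from its type, 23697 bases from its partner Krt8 and transcribed away from it. The other type I genes are on the minus strand of chromosome 11: Krt10 (ENSMUSG00000019761, 99385254 to 99389364), Krt15 (ENSMUSG00000054146, 100131758 to 100135928), Krt19 (ENSMUSG00000020911, 100140810 to 100148665), Krt14 (ENSMUSG00000045545, 100203162 to 100207548) and Krt17 (ENSMUSG00000035557, 100256217 to 100261029). Annotated genes on the opposite strand overlap 37.1% of Krt6a, 13.6% of Krt10, 6.59% of Krt7, 3.48% of Krt8 and 2.21% of Krt5. No source used here gives the strand setting of the counting, and Krt6a has the close copy Krt6b while Krt14 and Krt17 resemble Krt16. Counts of these genes, of Krt6a most of all, are therefore uncertain to the extent that reads were shared.

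The stretches before the starts of 4 members are shown: the abundant partners Krt8 and Krt18, the basal Krt5 and the skin keratin Krt10. RefSeq on GRCm38.p6, a C57BL/6J genome while these mice were FVB/N, gave a start for 6 of the 10 members. The 250 bases before each start were searched on both strands for the TATA box TATAAA, the Sp1 core GGGCGG (in 32.7% of 32851 such windows of the genome), the AP-1 site TGANTCA (in 6.75%) and the AP-2 site GCCNNNGGC, and bases within annotated exons are not printed. Capitals mark a match.
Krt8, chr15:102004483-102004592, minus strand: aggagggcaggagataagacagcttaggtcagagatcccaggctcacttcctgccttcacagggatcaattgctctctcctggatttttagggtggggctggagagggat
Krt18, chr15:102027966-102028179, plus strand: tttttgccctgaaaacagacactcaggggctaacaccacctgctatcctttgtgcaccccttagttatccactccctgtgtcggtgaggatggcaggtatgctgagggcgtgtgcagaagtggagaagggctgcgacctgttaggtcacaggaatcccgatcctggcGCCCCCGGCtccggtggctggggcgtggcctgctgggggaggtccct
Krt5, chr15:101712906-101713155, minus strand: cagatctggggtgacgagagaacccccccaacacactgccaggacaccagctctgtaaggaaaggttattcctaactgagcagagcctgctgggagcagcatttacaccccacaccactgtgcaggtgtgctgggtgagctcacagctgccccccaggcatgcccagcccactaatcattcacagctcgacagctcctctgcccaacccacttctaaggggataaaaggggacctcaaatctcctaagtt
Krt10, chr11:99389365-99389614, minus strand: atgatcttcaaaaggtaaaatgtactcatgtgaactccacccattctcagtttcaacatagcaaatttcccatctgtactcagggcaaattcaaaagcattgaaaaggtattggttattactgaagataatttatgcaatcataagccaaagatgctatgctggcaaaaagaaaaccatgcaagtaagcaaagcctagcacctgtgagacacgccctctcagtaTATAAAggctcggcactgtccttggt
Krt10 held TATAAA from 26 to 21 bases before its start, a motif found in 12.4% of the windows. Krt18 held GCCNNNGGC from 83 to 75 bases before its start, a motif in 13.7% of the windows. The windows of Krt8 and Krt5 held none of the 4 motifs. Those of Krt7 and Krt14 were searched as well and are not printed. Krt7 held matches to GGGCGG, the nearest from 24 to 19 bases before its start. It also held matches to GCCNNNGGC, the nearest from 70 to 62 bases before its start. These are matches of letters in a reference genome and carry no measurement from the tumours.

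Depth was 14813940 to 16947400 counts per library, with 19305 to 21894 genes detected and 0.549% to 1.41% mitochondrial counts. Levels are counts scaled to a fixed library size (CPM), adjusted between libraries by edgeR's TMM method, and differences are log2 of 16IC over EIC. Epithelial markers were present in every tumour: Epcam, the epithelial adhesion molecule, ran from 1225 to 2081 CPM, and the 17 genes of the luminal epithelium list summed to 4079 to 4912 CPM in EIC and 4628 to 5101 CPM in 16IC. In bulk tumours, fewer cells of a type and less RNA per cell cannot be told apart. Several tumours stood apart in ways that touch the keratins. EIC 1 carried transcripts of skin and hair follicles, EIC 2 lacked keratins that the other EIC tumours carried, and both are followed below.

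Krt8 and Krt18 were abundant in all 10 tumours. The EIC tumours 1 to 5 held 1371, 696, 897, 1549 and 1809 CPM of Krt8, the type II keratin of simple epithelia, and the 16IC tumours 1 to 5 held 605, 1166, 893, 858 and 977 CPM. The groups overlapped, with 3 EIC tumours above every 16IC tumour. The means of 1264 ± 460.2 CPM for EIC and 899.9 ± 203.5 CPM for 16IC (SD over 5 tumours) gave a log2 difference of -0.49 (SE 0.28, 95% interval -1.11 to 0.13, adjusted p = 0.467 by edgeR's quasi-likelihood test).

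Krt18, the type I partner of Krt8, stood at 951, 729, 577, 1332 and 1131 CPM in EIC tumours 1 to 5 and at 556, 913, 1596, 1115 and 889 CPM in 16IC tumours 1 to 5. The highest and the lowest tumour were both 16IC. The means of 943.9 ± 302.5 and 1014 ± 382.3 CPM differed by 0.10 on the log2 scale (SE 0.31, 95% interval -0.57 to 0.78, edgeR adjusted p = 0.898). Without EIC 3 or without 16IC 3 that difference lay below 0, at -0.03 and -0.12.

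Per length, in FPKM as the authors deposited them, the 2 partners were nearly balanced in EIC and less so in some 16IC tumours. The ratio of Krt8 to Krt18 was 1.06, 0.700, 1.14, 0.854 and 1.17 in EIC tumours 1 to 5. In 16IC tumours 1 to 5 it was 0.799, 0.938, 0.411, 0.565 and 0.806. Krt18 was thus the higher of the pair in all 5 16IC tumours and in 2 of 5 EIC tumours, and the ratio was lowest in 16IC 3, the tumour with the most Krt18. The groups overlapped in this ratio, which was not tested.

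Krt7, a type II keratin of ducts and other glandular linings, was more uneven. The EIC tumours held 263, 198, 154, 524 and 295 CPM in order, and the 16IC tumours 19.3, 169, 109, 37.5 and 144 CPM. Only 16IC 2 reached above the lowest EIC tumour, EIC 3. The means were 286.9 ± 143.3 and 95.7 ± 65.2 CPM, and the log2 difference was -1.58 (SE 0.56, 95% interval -2.83 to -0.33). It did not pass over all genes tested by edgeR (adjusted p = 0.311, unadjusted 0.0178) or by DESeq2 (adjusted p = 0.0929), although DESeq2 passed it without 16IC 2 (0.0340).

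Krt19, a type I keratin without the tail domain of its relatives, was either abundant or nearly missing. The EIC tumours 1 to 5 held 390.3, 2.79, 243, 263 and 445 CPM. The 16IC tumours 1 to 5 held 3.52, 342, 3.04, 0 and 233 CPM. The level was thus at or above 233 CPM in 6 tumours and at or below 3.52 CPM in the other 4, EIC 2, 16IC 1, 16IC 3 and 16IC 4, with nothing between. In 16IC 4 no read of Krt19 was counted among 14813940, which allows a level of up to 0.203 CPM by counting error.

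Both genotypes held tumours of either kind, so the means of Krt19, 269 ± 171 CPM for EIC and 116 ± 161 CPM for 16IC, describe few of the tumours. The log2 difference was -1.21 (SE 1.59, 95% interval -4.72 to 2.31, edgeR adjusted p = 0.752), and it ran from -2.16 to -0.89 with 1 tumour left out. The SD of log2 CPM over the 10 tumours was 4.24 for Krt19, larger than in 99.99% of the 14915 genes tested. Krt14 was nearly as uneven (4.18, 99.98%), and Krt17 (2.99, 99.6%) and Krt5 (2.37, 98.7%) were also near the top. Krt8 (0.50) and Krt18 (0.49) lay near the middle (55.9% and 54.8%). Of 1636 tested genes that reached at least 200 CPM in some tumour, 52 (3.18%) lay at or under 5 CPM in another, as Krt19 did. These limits were set after the values of Krt19 were seen.

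**Figure D1:**
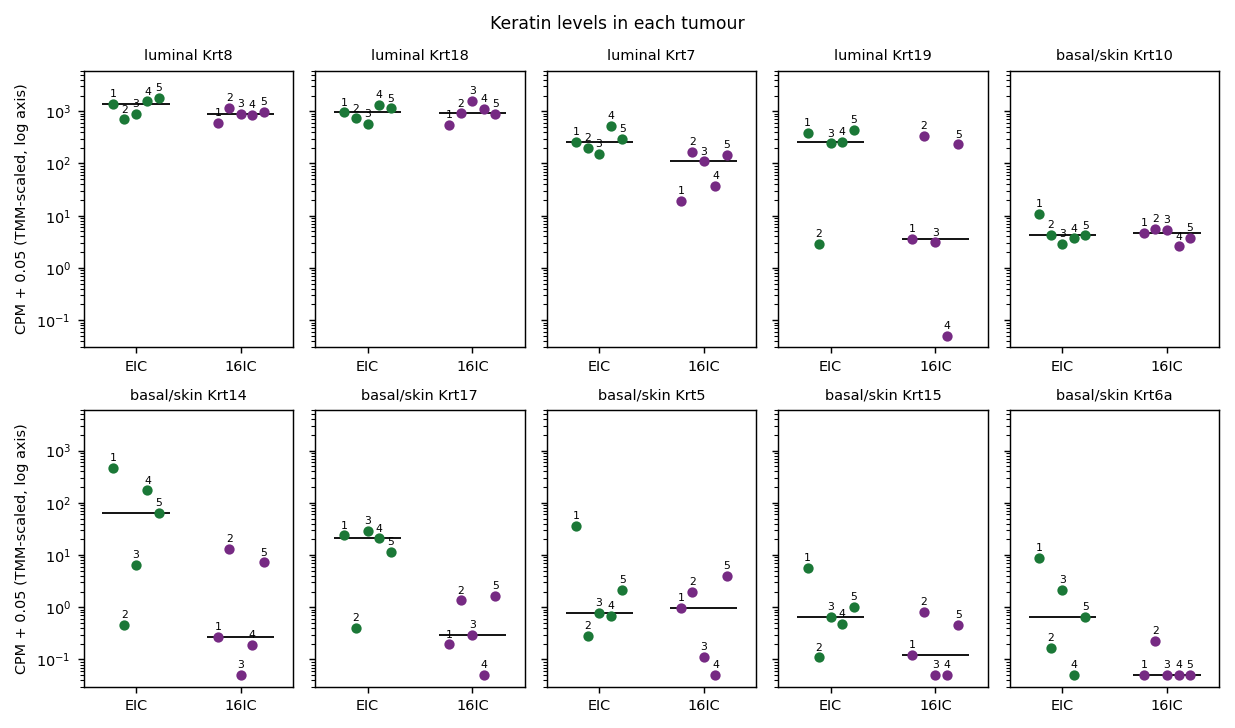
Level of each keratin in each tumour, in TMM-scaled CPM with 0.05 added so that a level of 0 can be drawn on the log axis. Points are tumours numbered within their genotype and the line is the median of 5. Krt8 and Krt18 form tight clouds, EIC 1 stands apart in Krt10, and Krt19 splits into 6 tumours at or above 233 CPM and 4 at or below 3.52 CPM.

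Among the basal keratins Krt14, the type I keratin of basal cells, had the widest range. The EIC tumours 1 to 5 held 464.9, 0.415, 6.40, 173 and 64.2 CPM, and the 16IC tumours 0.216, 12.9, 0, 0.137 and 7.14 CPM. EIC 1, EIC 4 and EIC 5 stood above every 16IC tumour, EIC 3 lay among the higher 16IC tumours, and EIC 2 was as low as the lower ones. The means were 142 ± 193 and 4.09 ± 5.81 CPM, with a log2 difference of -5.10 (SE 1.80, 95% interval -9.09 to -1.12). Over all genes tested it passed neither edgeR (adjusted p = 0.307) nor DESeq2 (adjusted p = 0.0834). The difference was -3.89 without EIC 1 by edgeR, and DESeq2 passed it without EIC 2 (adjusted p = 0.0332) and without 16IC 2 (0.0311).

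Krt17, a type I keratin of basal, follicular and injured epithelium, was the only member that DESeq2 called. The EIC tumours held 23.7, 0.356, 28.5, 20.7 and 11.4 CPM in order, and the 16IC tumours 0.144, 1.31, 0.243, 0 and 1.58 CPM. Of the 5 EIC tumours, 4 stood above every 16IC tumour, and EIC 2 lay among them. The log2 difference was -4.65 (SE 1.15, 95% interval -7.19 to -2.12), with means of 16.9 ± 11.2 and 0.655 ± 0.731 CPM. edgeR's adjusted p was 0.249 (unadjusted 0.00207), and DESeq2's was 0.000519. DESeq2 called Krt17 in all 10 fits with 1 tumour left out, with a highest adjusted p of 0.00504, without EIC 4. In the authors' deposited table its log2 fold change is -4.69 and its adjusted p 0.000519.

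Krt5, the type II partner of Krt14, was low everywhere but in EIC 1. The EIC tumours held 36.3, 0.237, 0.718, 0.624 and 2.10 CPM and the 16IC tumours 0.935, 1.90, 0.0607, 0 and 3.86 CPM. Apart from EIC 1, the highest tumour was 16IC 5. The log2 difference of -2.55 (SE 1.52, edgeR adjusted p = 0.479) turned to 0.56 without EIC 1, and DESeq2 gave Krt5 no p-value. Krt14 and Krt5 therefore did not keep a fixed ratio: per length, in FPKM, Krt14 over Krt5 was 16.0, 2.19, 11.1, 347 and 38.1 in EIC tumours 1 to 5. In 16IC tumours 1, 2, 3 and 5 it was 0.288, 8.51, 0 and 2.31, and 16IC 4 held no Krt5.

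Krt15 and Krt6a were too low for the count filter of edgeR and were not tested by it. Krt15, a keratin of basal and follicular stem cells, held 5.67 CPM in EIC 1, 0.0593 to 0.962 CPM in the other EIC tumours and 0 to 0.772 CPM in 16IC. It had 132 counts over the 5 EIC libraries and 21 over the 5 16IC libraries. Krt6a had 200 counts in EIC, of which 153 came from EIC 1 and none from EIC 4, and 3 counts in 16IC, all from 16IC 2. DESeq2 gave adjusted p = 0.259 for Krt15 and 0.101 for Krt6a, the latter passing only without EIC 4 (0.00513).

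Krt10, the keratin of the upper epidermis, was low in every tumour. The EIC tumours held 10.9, 4.27, 2.87, 3.62 and 4.15 CPM and the 16IC tumours 4.67, 5.52, 5.28, 2.53 and 3.69 CPM. Only EIC 1 stood apart, and the other 9 tumours spanned 2.53 to 5.52 CPM. The log2 difference was -0.25 (SE 0.40, edgeR adjusted p = 0.797) and turned to 0.22 without EIC 1.

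Over the list, edgeR called 0 of the 8 members it tested, where it called 0% of all 14915 genes, and DESeq2 called 1 of the 9 to which it gave an adjusted p, where it called 2.11% of 16838 genes (1.27% as lower in 16IC). At an unadjusted p under 0.05 edgeR had 3 of the 8, Krt17, Krt14 and Krt7, all lower in 16IC, against 13.1% of all genes, or 6.29% as lower in 16IC. None of the 8 had groups without overlap, which 2.58% of all genes had (1.19% with 16IC lower). A difference below 0 was found for 7 of the 8 against 52.3% of all genes, with a median of -1.40 against -0.02, and a difference below -1 for 5 of the 8 against 6.13%. Without EIC 1, 5 of 8 lay below 0 and the median was -0.75. Krt5, Krt14 and Krt17 had at least 10 counts, the minimum set for the filter, in EIC 1, EIC 3, EIC 4 and EIC 5. They also had at least 10 in 16IC 2 and 16IC 5, so tumours of both genotypes took them past the filter. The members were chosen with earlier results of these data known, so these counts describe the tested members and lend no support of their own.

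**Figure D2:**
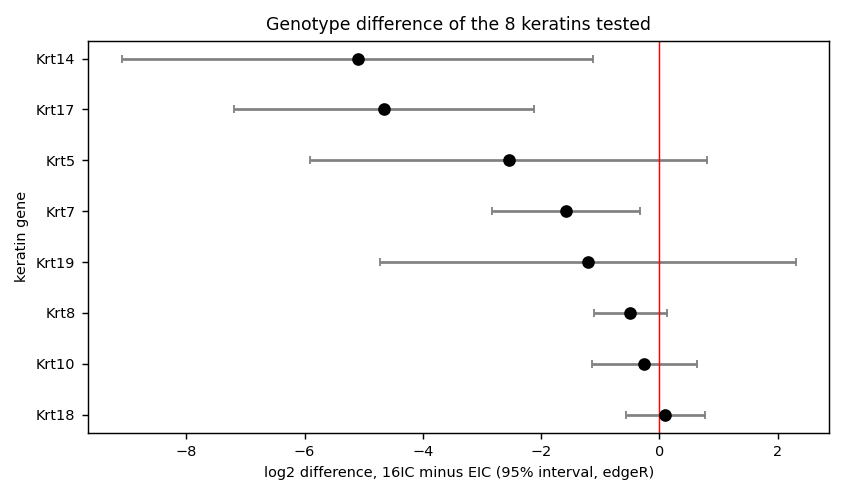
Log2 difference of 16IC minus EIC for the 8 keratins tested, with the 95% interval of edgeR's quasi-likelihood fit over 5 tumours a group. The intervals of Krt14, Krt17 and Krt7 lie below 0 before adjustment over all genes, and those of Krt18, Krt10 and Krt8 are the narrowest.

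Compared per length, in FPKM, the luminal partners led in every tumour. In EIC the medians ran Krt8 698, Krt18 659, Krt19 137, Krt7 37.2, Krt14 35.5, Krt17 12.9, Krt10 1.91, Krt15 0.328, Krt5 0.317 and Krt6a 0.242 FPKM. Not all neighbours in that order were separated: Krt8 exceeded Krt18 in 3 of 5 tumours, Krt7 exceeded Krt14 in 3 and Krt15 exceeded Krt5 in 1. In 16IC the order was Krt18 610, Krt8 431, Krt7 14.7, Krt10 2.18, Krt19 1.87, Krt5 0.420, Krt17 0.148, Krt14 0.121, Krt15 0.0401 and Krt6a 0 FPKM. Here Krt18 exceeded Krt8, Krt8 exceeded Krt7 and Krt7 exceeded Krt10 in 5 of 5 tumours, while Krt10 exceeded Krt19 in 3 and Krt17 exceeded Krt14 in 1. The length of 7049 bases that the table gives for Krt7, against 1437 to 2418 bases for the other members, lowers its FPKM.

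**Figure D3:**
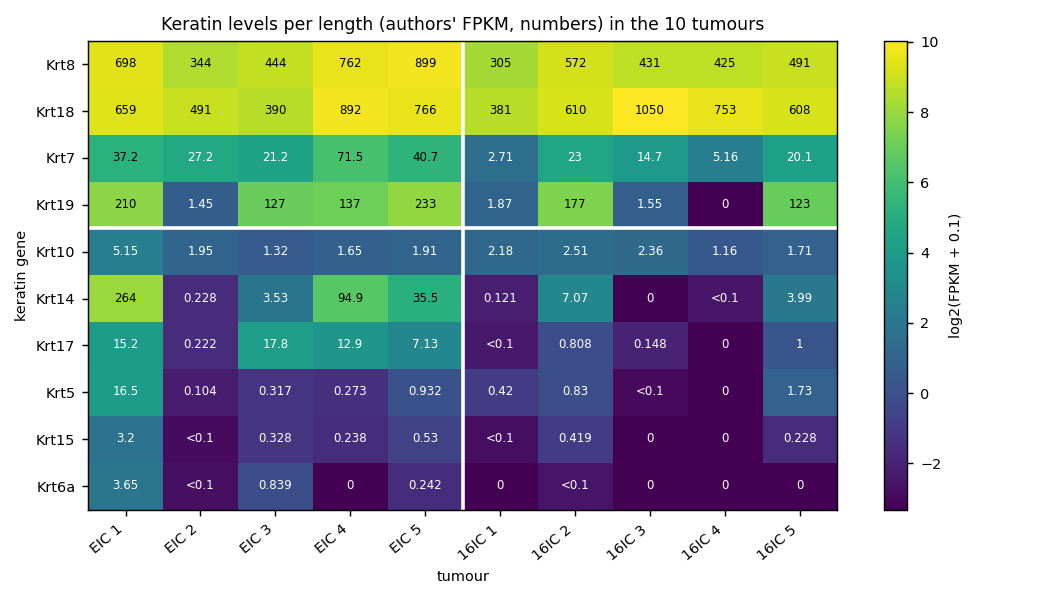
FPKM of the 10 keratins (rows, luminal above the white line) in the 10 tumours (columns, EIC left of the line), as numbers, with colour for log2(FPKM + 0.1). Krt8 and Krt18 are at 305 to 1050 FPKM throughout, and the columns EIC 2, 16IC 1, 16IC 3 and 16IC 4 are dark in Krt19, Krt14, Krt17 and Krt15.

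Taken as sets, the 4 luminal keratins summed to 863 to 1939 FPKM in EIC and 690.5 to 1497 FPKM in 16IC, and the 6 basal or skin keratins to 2.59 to 307 and 1.24 to 11.7 FPKM. The basal or skin share of the keratin FPKM was 16.1, 0.299, 2.40, 5.57 and 2.33% in EIC tumours 1 to 5. In 16IC it was 0.411, 0.840, 0.169, 0.104 and 0.693%. Every EIC tumour but EIC 2 exceeded every 16IC tumour, and Krt14 alone made up 85.8%, 86.3% and 76.8% of the basal or skin sum in EIC 1, EIC 4 and EIC 5. Krt8 and Krt18 together held 71.0% to 96.4% of the keratin FPKM in EIC and 84.8% to 99.5% in 16IC.

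The balance between the sets, the mean log2(FPKM + 0.1) of the luminal members less that of the basal or skin members, was closer between the genotypes. It was 4.26, 7.39, 6.54, 7.36 and 7.01 in EIC tumours 1 to 5 and 6.57, 7.52, 8.13, 6.92 and 7.54 in 16IC. The groups overlapped, and the means of 6.51 ± 1.30 and 7.33 ± 0.60 differed by 0.82, less than the pooled SD of 1.02. Taken from the summed levels the difference was 3.06, and with a pseudocount of 1 in place of 0.1 it was 0.11. It was 1.24 without Krt10 and 1.41 without Krt6a and Krt10, so its size depended on these choices. In EIC 2, 16IC 1, 16IC 3 and 16IC 4 both mean log2 levels were lower than in any other tumour. Luminal means were 4.34 to 5.85 there and basal means -2.58 to -1.70. These 4 tumours are those with little Krt19, itself a luminal member, so their low luminal mean follows in part from that choice. By summed luminal FPKM, 16IC 3 (1497) was above EIC 3 (982), 16IC 2 (1382) and 16IC 5 (1243). The balances of the 4 tumours were 7.39, 6.57, 8.13 and 6.92, against 4.26 to 7.54 in the other 6, so that 16IC 3 lay above all others. This balance combines members chosen with results known and has no test.

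**Figure D4:**
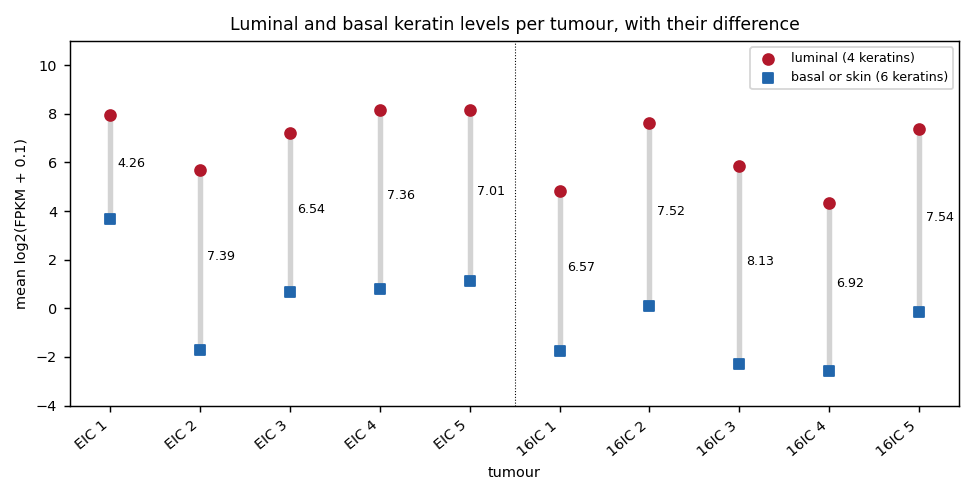
Mean log2(FPKM + 0.1) of the 4 luminal (circles) and the 6 basal or skin keratins (squares) in each tumour, with the number beside each bar giving their difference. The bar is shortest in EIC 1 (4.26) and longest in 16IC 3 (8.13), and in EIC 2, 16IC 1, 16IC 3 and 16IC 4 both ends sit lower.

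Whether the partners rose and fell together was asked over the 10 tumours with log2 CPM, for all 45 pairs of members. Since the tumours fall into separate sets by Krt19, its 9 pairs are left out of the pooled values. Of the other 36 pairs, 32 had a positive Pearson r, 10 passed by Pearson's r and 8 by both Pearson's r and Spearman's rho (permutation tests with 100000 resamples, adjusted over 45 pairs). Krt8 with Krt18 did not pass, with r = 0.55 and rho = 0.53 (permutation, adjusted p = 0.176 and 0.224), and r was 0.41 without the 2 tumours farthest from the median of Krt8. By r, Krt18 ranked 2540th among the genes tested in likeness to Krt8, and Krt8 ranked 845th in likeness to Krt18.

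With both genotypes pooled, several pairs were closer than Krt8 with Krt18. The luminal Krt7 with Krt8 had r = 0.76 and rho = 0.79 (permutation, adjusted p = 0.0326 and 0.0454), and kept 0.71 without the 2 farthest tumours. Among the basal or skin keratins Krt10 passed with no other, its r running from 0.22 (Krt17) to 0.70 (Krt5). Krt5 with Krt15 had r = 0.91 and rho = 0.81 (permutation, adjusted p = 0.0119 and 0.0405), and r was 0.75 without the 2 farthest tumours. Krt14 with Krt17 had r = 0.88 and rho = 0.77 (permutation, adjusted p = 0.0191 and 0.0454) and kept 0.86. Krt5 with Krt14 had r = 0.77 and rho = 0.72 and passed by r alone (permutation, adjusted p = 0.0272 and 0.0702), with 0.58 left, and Krt6a with Krt17 had r = 0.69 and rho = 0.68 and passed by neither (0.0564 and 0.0932), with 0.44 left. A luminal and a basal keratin could be as close as this: Krt8 with Krt14 had r = 0.84 and rho = 0.84 (permutation, adjusted p = 0.0191 and 0.0321), and 0.80 without the 2 farthest tumours. Values of a tumour share its library and depth. Krt8, Krt14, Krt15 and Krt17 had the same 4 lowest tumours as Krt19. Their widest inner gaps (0.16, 0.30, 0.26 and 0.35 of the range, against 0.51 for Krt19) kept them among the pooled pairs. The r between these keratins thus includes the difference between those 4 tumours and the other 6, and was not taken within either set.

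Within the 6 tumours that carried Krt19, none of its 9 relations passed after adjustment (exact permutation tests, with 0 unadjusted p under 0.05 by Pearson's r and 1 by Spearman's rho, for Krt15). Krt19 with its type II relative Krt7 had r = 0.28 and rho = 0.66 (exact permutation, adjusted p = 0.673 and 0.315, n = 6), and r was 0.04 without the 2 farthest tumours. Krt19 with Krt8 had r = 0.73 and rho = 0.77 (exact permutation, adjusted p = 0.508 and 0.315, n = 6), and r was 0.36 without them. This subset was chosen after the values were seen.

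The 4 tumours with little Krt19 were also the 4 lowest for Krt8, Krt14, Krt15 and Krt17, that is for 4 of the 9 other members. Of the 14915 genes tested, 1175 (7.88%) had the same 4 lowest tumours, but Krt15 and Krt6a are not among the genes tested. For Krt8 the pattern was a near tie, with 893 CPM in 16IC 3 against 897 CPM in EIC 3. For Krt15 it rests on 0 or 1 counts in each of the 4 tumours. Of the basal and myoepithelial markers, 6 of 13 had the same 4 lowest tumours: Trp63, the master transcription factor of basal epithelium, Cnn1, Tagln, Oxtr, Cdh3 and Lgals7. Trp63 stood at 1.42, 1.44, 1.52 and 1.98 CPM in EIC 2, 16IC 1, 16IC 3 and 16IC 4 and at 2.31 to 31.6 CPM elsewhere. Among the genes that anchor keratin filaments at desmosomes and hemidesmosomes, Lama3 and Lamb3, which encode laminin chains, did so. Lamb3 was at 2.31 to 27.7 CPM in those 4 tumours and at 209 to 671 CPM in the others. Of 16 luminal epithelium genes tested, Cdh1, Cldn7 and Elf3 did so.

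Part of the fibroblast markers moved with this pattern. Of 7 fibroblast markers, 4 had the same 4 lowest tumours (Col1a1, Col1a2, Pdgfra and Pdgfrb), and Col3a1, Dcn and Lum did not. Dcn was at 101 and 117 CPM in 16IC 1 and 16IC 4, above every tumour outside the 4 but EIC 1. Lum was at 63.9 CPM in 16IC 4, and Col3a1 was lower in EIC 3 (561 CPM) than in EIC 2 (575 CPM). The list summed to 1708, 2319, 387 and 1053 CPM in EIC 2, 16IC 1, 16IC 3 and 16IC 4 and to 2540 to 6578 CPM elsewhere. The 4 adipocyte markers summed to 13.6, 2.09, 0.182 and 0.342 CPM there and to 1.67 to 83.6 CPM elsewhere, and EIC 3, which carried Krt19, was among the low ones. Of 5 leukocyte markers tested, 1 had the same lowest tumours (Adgre1), with a list sum of 180.3 to 291 CPM there and 280.2 to 819 CPM elsewhere. The part of these cells in the keratin pattern was not tested. The adipocyte, skeletal muscle, endothelial and milk lists held no gene with these 4 lowest tumours.

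The genes whose levels were most like each member over the 10 tumours, by Pearson r of log2 CPM, are a description of these libraries. For Krt19 they were Zc3h12a, Lhfpl2 and Chst11 (r of 0.98 each). For Krt7 they were Pla2g7 (0.98), Hspd1 and Anxa3 (0.96 each), for Krt8 Samd1 (0.96), Gm11560 and March1 (0.95 each), and for Krt18 Eif4a-ps4 (0.93), Ifitm2 and Ahcy (0.92 each). For Krt14 they were Gcnt2 (0.99), Plat and Foxq1 (0.98 each), and for Krt17 they included Rlim (0.96) and Ccdc88c (0.95). Those of the keratins high in EIC 1 were Gfra1 (0.98), Igkc and St8sia4 (0.96 each) for Krt5, Tnfrsf25 (0.98), Srgn and Cacna1c (0.96 each) for Krt15, and Fam135a, Cyp2d10 (0.93 each) and Mdm2 (0.92) for Krt6a. Krt10 had the least close ones, Mgam, Tra2a (0.86 each) and Agps (0.84).

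EIC 1 carried skin and hair transcripts that the other tumours hardly had. The 16 skin keratinocyte genes in the table summed to 43.1 CPM in EIC 1, 3.12 to 10.7 CPM in the other EIC tumours and 2.91 to 4.45 CPM in 16IC. All 16 had counts in EIC 1, where 15 were highest, and 8 were at 0 in every 16IC tumour. The 14 hair follicle genes summed to 81.7 CPM in EIC 1, 1.81 to 14.2 CPM in the other EIC tumours and 1.70 to 3.26 CPM in 16IC, and 7 were at 0 in every 16IC tumour. Most of that sum was Tchh, trichohyalin of the inner root sheath (69.6 CPM in EIC 1). EIC 1 was also the tumour with the most Krt5, Krt14, Krt15, Krt6a and Krt10, that is 5 of the 6 basal or skin members, whereas Krt17 was highest in EIC 3. The part of skin in these levels was not tested. Without EIC 1, DESeq2 gave log2 differences of -4.53 for Krt17 and -3.91 for Krt14 (adjusted p = 0.00427 and 0.362).

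**Figure D5:**
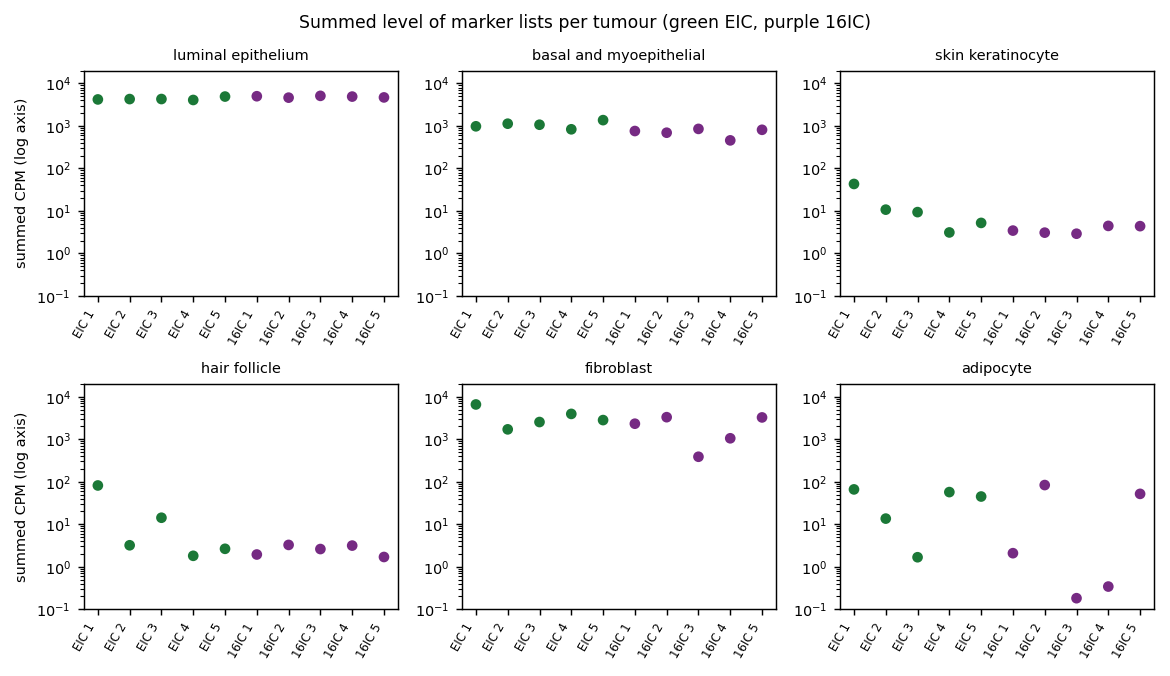
Summed CPM of 6 marker lists in each tumour, on a log axis. EIC 1 leads the skin keratinocyte (43.1 CPM) and hair follicle (81.7 CPM) lists, the luminal epithelium list stays between 4079 and 5101 CPM, and the adipocyte list runs from 0.182 to 83.6 CPM.

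The other keratins were few. Of the 37, edgeR could test 3, and it called none (2 had an unadjusted p under 0.05). Krt79, a type II keratin of follicles and glands, was at 32.5, 0, 14.4, 15.8 and 9.86 CPM in EIC tumours 1 to 5 and at 0.360, 2.97, 0.364, 1.09 and 0.468 CPM in 16IC. As with Krt17, every EIC tumour but EIC 2 stood above all 16IC tumours (log2 difference -3.77, SE 1.16, adjusted p = 0.288 by edgeR and 0.0130 by DESeq2). Krt80 averaged 7.22 ± 2.44 CPM for EIC and 2.32 ± 2.12 CPM for 16IC (edgeR adjusted p = 0.327), and Krt23 10.9 ± 7.83 and 10.4 ± 6.06 CPM (0.960). Krt6b, the close copy of Krt6a and under edgeR's filter, had counts in all 5 EIC tumours (0.0593 to 5.32 CPM) and none in 16IC, and DESeq2 called it (adjusted p = 0.00259). In 16IC, 20 of the 37 had no count in any tumour, and 27 were highest in EIC 1.

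Luminal and basal genes outside the keratin family were divided. Of the 16 luminal epithelium genes tested, 9 were higher and 7 lower in 16IC, with a median log2 difference of 0.15, and DESeq2 called 2 as higher: Gata3, a transcription factor of luminal fate (106 ± 21.2 CPM for EIC and 193 ± 52.0 CPM for 16IC, without overlap, adjusted p = 0.249 by edgeR and 0.0206 by DESeq2), and Spdef. Spdef, a transcription factor of secretory cells, stood at 13.1, 58.2 and 34.4 CPM in 16IC 1, 16IC 3 and 16IC 4, and at 0.125 to 3.11 CPM in the other 7 tumours. Of the 13 basal and myoepithelial genes, 1 was higher and 12 were lower (median -0.79, and -0.58 without EIC 1), and DESeq2 called Actg2, a smooth muscle actin, as lower (6.81 ± 2.67 and 0.809 ± 0.372 CPM). Of the 17 tested keratin-anchoring genes, 3 were higher and 14 lower (median -0.34), none called by edgeR (2 with an unadjusted p under 0.05) or DESeq2. The smallest p-values in that list were those of Plec, which links keratins to other filaments (251.3 ± 65.8 and 149 ± 41.5 CPM, edgeR adjusted p = 0.289), and Dsg3, a desmosomal cadherin of stratified epithelium (3.49 ± 2.44 and 0.949 ± 0.427 CPM, 0.292).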

How the data were processed

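Per the labels' protocols, the RNA came from Qiagen RNeasy Mini columns and the NEBNext Ultra II chemistry was used for the libraries. The submitters' processing notes name Trimmomatic, STAR, HTSeq, edgeR and limma, and the build GRCm38 (mm10), without versions. No source used here gives the annotation release. The deposited table holds raw counts per gene, the authors' FPKM, the authors' normalized counts (a signal, in each library proportional to the counts, not used further) and the authors' log2 fold changes, p-values and adjusted p-values. The deposited FPKM use a library total that differs from the summed counts, by 1 factor per library, so ratios between genes of a tumour are unaffected. The unit of gene length in the table was taken as bases. All 10 members have the same position in GENCODE mouse release 21.

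TMM scaling and the tests on counts used edgeR 4.0.16 in R 4.3.3 (filterByExpr with minimum count 10, robust quasi-likelihood fit, genotype as the only term), with Benjamini-Hochberg adjustment over 14915 genes and a threshold of 0.05. DESeq2 1.42.0 on all genes called 356, the same 356 as in the authors' deposited table. Both were tested on simulated data. Each tumour is from its own animal and nothing pairs them. Log2 CPM used a prior count of 2, and log2 FPKM a pseudocount of 0.1. Tumours counted as falling into separate sets by a gene where the widest inner gap exceeded 0.5 of its range. Limits at 0 (3 counts) cover counting error only. The intervals of the log2 differences come from edgeR's quasi-likelihood fit and include the spread between tumours. The members and gene lists were chosen with earlier results of these data known. Named genes were the members, up to 6 of the most abundant other keratins that passed the filter (3 did) and any called, list members called by either tool or else the 2 with the smallest p, and the 3 genes most like each member. Some results are not reported here. Epcam, Trp63, Lamb3 and the genes sharing the 4 lowest tumours of Krt19 were chosen after their values were seen. Lce3c and Krt85 of the lists were not matched.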

Additional observations from a re-analysis of the deposited data

Results flagged for a closer look

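Of 22 sets of 5 tumours (10 keratins and the balance in each genotype), 6 held a tumour far from the others by Dixon's test. Chance gives this in about 1 of 20 sets when the sets are independent and their values normally spread. The sets here share tumours and the balance is made from the same keratins, so 6 of 22 cannot be read against that rate. In 5 of the 6 sets the tumour was EIC 1. Its Krt5 level was 36.3 CPM with the next EIC tumour at 2.10 CPM, its Krt15 level 5.67 CPM (next 0.962), its Krt6a level 8.85 CPM (next 2.09) and its Krt10 level 10.9 CPM (next 4.27). The luminal over basal balance of EIC 1 was 4.26 and the next lowest EIC tumour had 6.54. In 16IC the Krt6a level of 16IC 2, 0.178 CPM from 3 counts, stood against 0 in the other 4 tumours.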

How the results depend on the processing

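No paired analysis was possible because the tumours come from different animals and their numbers follow the order of the samples. In place of edgeR's 0 genes and 0 keratins, DESeq2 called 356 genes and 1 keratin (Krt17). With 1 tumour left out, edgeR called 0 to 2 genes and 0 keratins: Slc22a18 without EIC 1, and Adamts4 and C130071C03Rik without EIC 2, named after their values were seen. DESeq2 called 178 (without 16IC 4) to 839 (without EIC 2) genes in such fits. DESeq2 with 1 tumour left out, the lists without EIC 1 and the relations of Krt19 within 6 tumours were added after seeing the data. Differences that crossed 0 with 1 tumour left out were those of Krt18 (-0.12 to 0.26), Krt5 (-3.46 to 0.56) and Krt10 (-0.41 to 0.22). The difference in balance ran from 0.26 (without EIC 1) to 1.04 with 1 tumour left out. It was 3.06 from summed levels, 0.11 with pseudocount 1, 1.07 from log2 CPM, 1.24 without Krt10 and 1.41 without Krt6a and Krt10, and kept its direction in all of these. With 1 tumour left out, r ran from 0.37 to 0.76 for Krt8 with Krt18 and from 0.65 to 0.90 for Krt5 with Krt14. Pooled r also holds differences between the genotypes. With levels centred on the genotype mean, r for Krt8 with Krt18 was 0.67, against 0.55 pooled. For Krt6a with Krt17 it was 0.44 centred, against 0.69 pooled. Krt5 with Krt14 and Krt5 with Krt15 had 0.78 and 0.93 centred, near the pooled 0.77 and 0.91. Scaling by total count moved the median of all genes from -0.02 to -0.07 and turned no keratin. Levels under 1 CPM rest on few counts.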

Other observations

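Neither tool called a marker of fibroblasts, leukocytes, endothelium, fat, muscle or milk. The 7 fibroblast markers were higher for 1 and lower for 6 in 16IC (median log2 difference -0.79, and -0.45 without EIC 1), with Col1a2 at 912 ± 447 CPM for EIC and 539 ± 345 CPM for 16IC and Pdgfrb at 48.7 ± 24.7 and 28.2 ± 9.18 CPM (SD, n = 5 each). All 5 tested leukocyte markers lay below 0 (median -0.40, and -0.14 without EIC 1), with Ptprc at 26.9 ± 11.1 and 18.2 ± 8.15 CPM and Adgre1 at 21.7 ± 5.36 and 16.4 ± 6.02 CPM. The 3 endothelial markers were split, 1 higher and 2 lower (median -0.17), among them Pecam1 (58.4 ± 14.1 and 50.9 ± 14.7 CPM) and Cdh5 (53.8 ± 9.76 and 47.9 ± 15.9 CPM). Of the 4 adipocyte markers 1 was higher and 3 were lower (median -0.40, and -0.04 without EIC 1), with Adipoq at 12.6 ± 9.63 and 8.81 ± 11.5 CPM and Plin1 at 10.3 ± 8.68 and 7.02 ± 10.1 CPM. The 4 skeletal muscle markers lay below 0 (median -3.13) and summed to 0.911 to 1934 CPM, most in EIC 2. Of these Ckm had 64.4 ± 82.0 and 6.59 ± 10.4 CPM and Myh4 138 ± 179.6 and 9.28 ± 18.4 CPM. Of 5 milk genes 1 was higher and 4 were lower (median -0.39, and 0.15 without EIC 1): Csn3 was higher in every 16IC tumour (9487 ± 4178 and 19727 ± 5658 CPM, edgeR adjusted p = 0.292) and Wap had 26.5 ± 29.9 and 3.77 ± 4.10 CPM. Of the skin keratinocyte list only Sbsn was abundant enough to test (6.65 ± 3.11 and 2.83 ± 0.524 CPM, edgeR adjusted p = 0.288). Of the hair follicle list, 2 were, and DESeq2 called Tchh as lower in 16IC (17.5 ± 29.5 and 0.452 ± 0.648 CPM, adjusted p = 0.0386).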
